A study of Sus scrofa with 79 samples.

Results

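Claudins and occludin are membrane proteins of the tight junction, and 8 of them were followed here in the small intestine and blood of pigs: CLDN2, CLDN3, CLDN4, CLDN5, CLDN7, CLDN12, CLDN15 and OCLN. They were taken by gene symbol from the porcine Agilent array of 43603 probes, on which 5461 probes could be given a symbol through their RefSeq accession (2389 genes). OCLN had 3 probes and each claudin had 1, so that 10 probes carried the 8 genes. RNA was measured on 79 arrays, 67 of jejunum and ileum at day 8, 55 and 176 after birth and 12 of whole blood at day 8. Piglets of TOPIGS20 sows, in 3 treatment groups, stayed with the sow up to the sampling at day 8. T1 piglets were handled only when blood was drawn at day 8. T2 piglets received tulathromycin, a macrolide antibiotic, at 2.5 mg/kg under the skin of the neck at day 4. T3 piglets received the same injection together with docking, clipping and weighing. At day 8 each array held a pool of 4 piglets, jejunum, ileum and blood of a pool came from the same piglets, and each group had 4 pools. Pool 8 of T2 had no ileum array among those used here. The composition of the pools of day 55 and 176, and how the pigs of those days were kept, are not given in the sources used here. Those groups had 4 pools each, except 3 for jejunum and ileum T2 at day 55, ileum T3 at day 176 and jejunum T2 at day 176. T1 was the control of the treatments.

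The tight junction closes the space between neighbouring epithelial cells, and claudins set what passes through it. CLDN2 and CLDN15 form paracellular channels for small cations, CLDN2 also for water. CLDN3, CLDN4, CLDN5 and CLDN7 are mostly counted as sealing claudins, and CLDN5 is also the main claudin of blood vessel endothelium. CLDN12 is a claudin without the usual binding motif for scaffold proteins, and OCLN is a 4-pass protein of another family that regulates the junction. In the small intestine the mix of channel and sealing claudins changes between suckling and adult life and along the length of the gut.

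Values are log2 of the processed spot signal after quantile normalization over the arrays of a comparison, so that 1 unit is a 2-fold difference. Levels were compared between samples for 1 gene and never between genes. Differences were tested with limma over all genes, and adjusted p is the two-sided p after Benjamini-Hochberg adjustment over all genes of that comparison. A gene was called when adjusted p was below 0.05 and the fold was above 1.5. Errors of differences are standard errors. The p-values measure the spread between pools. In bulk tissue fewer cells of a type and less RNA per cell cannot be told apart.

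The share of spots well above background was 42.4% to 75.2% on the tissue arrays and 34.8% to 44.1% on the blood arrays. Of the tissue arrays, 8 stood apart: jejunum day 8 T2 pool 8, ileum day 8 T1 pool 11, the 4 ileum day 55 T3 arrays, jejunum day 176 T2 pool 8 and jejunum day 176 T1 pool 9. Except for the first, this share was under 55% or the correlation with the other arrays of the tissue and day was under 0.94. The first passed both limits (64.8% and 0.953) and was set apart as the likely sample removed by the study. The study removed a jejunum sample without naming it, and no column of the authors' table of processed values matched this array. Every group lay on 1 slide, and ages lay on different slides and in different scan sessions, so age and slide cannot be told apart. At day 8, T1 of jejunum and of blood and T3 of ileum lay on another slide than the other treatments. At day 176 the same held for T1 of ileum and T3 of jejunum. In comparisons across these slides treatment and slide cannot be told apart. The authors' table of processed values paired the tissue arrays of days 8 and 55 with other labels than the scanner files did. Its columns of jejunum day 8, ileum day 8, ileum day 55 and jejunum day 55 matched the scanner arrays of jejunum day 55, jejunum day 8, ileum day 8 and ileum day 55 (11 columns each), while the columns of blood and day 176 matched their own arrays. The labels of the scanner files were used. Under the labels of the table the arrays here called jejunum day 55 would be jejunum day 8, and the 8 treatment calls of day 55 would become 0 at day 55 and 6 at day 8. Differences of age and tissue changed with them too. CLDN3 would differ from day 8 to day 55 by -0.42 in jejunum and -0.18 in ileum, and from day 8 to day 176 by -0.27 in jejunum. OCLN would differ by 0.02 in ileum from day 8 to day 55. CLDN15, CLDN2, CLDN4 and OCLN would be higher in ileum than in jejunum at day 55, at 2.13, 1.81, 1.13 and 1.10. Under the labels of the scanner files PIGR, the epithelial transporter of antibodies, had a median of 8.44 in jejunum and 7.30 in ileum at day 8 and of 11.79 to 14.28 at the later days. CD79A, a B cell gene, had a median of 12.65 and 12.27 in ileum at day 55 and 176 and of 8.64 and 7.99 in jejunum. FABP6, the ileal bile acid binding protein, did not separate the tissues at day 55, with a median of 18.10 in ileum and 17.89 in jejunum.

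With age the channel-forming and most of the sealing claudins fell and CLDN3 rose. Between day 8 and day 176, 7 of the 8 genes were called in jejunum and 8 of 8 in ileum, against 49% and 48.6% of all genes. In each tissue CLDN3 was the only one of them that was higher at day 176, where 26.9% of all genes in jejunum and 25.9% in ileum were called higher. The median difference over the 8 genes was -1.74 in jejunum and -1.91 in ileum, beside 0.13 and 0.07 over all genes tested.

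Marker genes of several cell types moved over the same period. The median summed level of 13 epithelial genes went from 20.53 to 20.12 in jejunum (4 lower, 2 higher) and from 20.46 to 19.18 in ileum (8 lower, 2 higher). That of 7 T cell genes went from 10.81 to 12.89 in jejunum (6 higher) and from 10.66 to 13.12 in ileum (7 higher). That of 4 smooth muscle genes went from 14.74 to 13.38 in jejunum (2 lower) and from 14.36 to 12.55 in ileum (3 lower). The part of these cells in the age differences was not tested.

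**Figure D1:**
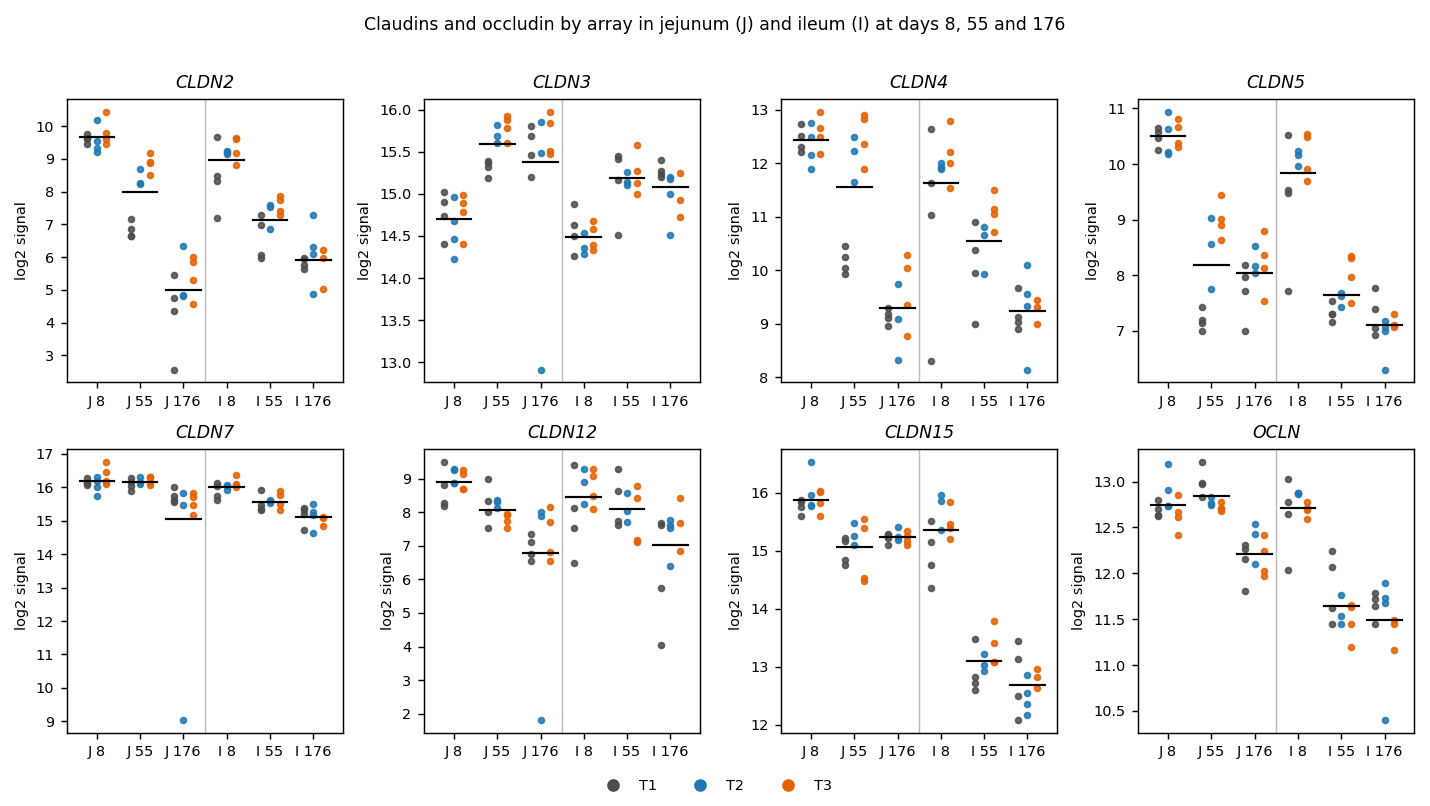
Level of each gene (vertical axes, log2 normalized signal) on the 67 tissue arrays, by tissue and day (horizontal axis); points are arrays, coloured by treatment, and bars are means. CLDN2 stepped down from day 8 to day 176 in both tissues, CLDN15 parted between jejunum and ileum after day 8, and jejunum day 176 T2 pool 8 stood far below the rest for CLDN7 and CLDN12.

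Among the channel claudins, CLDN2 in jejunum went from a lowest, median and highest value of 9.22, 9.60 and 10.45 at day 8 (n = 12) to 6.64, 8.28 and 9.17 at day 55 (n = 11) and 2.56, 4.83 and 6.34 at day 176 (n = 11). In ileum the same values were 7.19, 9.17 and 9.66, then 5.97, 7.28 and 7.86, then 4.88, 5.98 and 7.27 (n = 11 each). All jejunum arrays of day 8 lay above those of day 55, and all of day 55 lay above those of day 176, whereas the ranges of ileum overlapped between neighbouring days. The fall from day 8 to day 55 was -1.64 ± 0.25 in jejunum (adjusted p = 2.64e-07) and -1.82 ± 0.26 in ileum (adjusted p = 2.76e-08). From day 55 to day 176 it was -3.02 ± 0.26 in jejunum (adjusted p = 7.43e-14) and -1.26 ± 0.26 in ileum (adjusted p = 0.000101). Over the whole period CLDN2 was 25.3-fold lower in jejunum and 8.46-fold lower in ileum. The jejunum fold includes 1 value at background, the lowest of day 176 (2.56, T1 pool 9).

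CLDN15 in ileum had a lowest, median and highest value of 14.36, 15.38 and 15.96 at day 8, of 12.59, 13.08 and 13.78 at day 55 and of 12.09, 12.63 and 13.45 at day 176. In jejunum the values were 15.59, 15.82 and 16.53, then 14.48, 15.16 and 15.54, then 15.09, 15.23 and 15.41. The ileum arrays of day 8 did not overlap those of the later days, and in jejunum no array of a later day reached the lowest of day 8. The fall to day 55 was -2.28 ± 0.15 in ileum (adjusted p = 1.29e-19) and -0.80 ± 0.14 in jejunum (adjusted p = 4.83e-06). Between day 55 and day 176 the ileum differed by -0.41 ± 0.15 (adjusted p = 0.0216), below the fold limit, and the jejunum by 0.15 ± 0.15 (adjusted p = 0.398). The jejunum fall depended on the scaling. With arrays scaled to their 75th percentile, which moved the median of all genes between day 8 and day 176 in jejunum to 0.46, CLDN15 differed by -0.20 at day 55 (adjusted p = 0.229) and by -0.37 at day 176 (adjusted p = 0.0183), below the fold limit.

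Of the sealing claudins, CLDN4 had means of 12.45 ± 0.31 (SD), 11.55 ± 1.16 and 9.29 ± 0.56 in jejunum and of 11.64 ± 1.21, 10.55 ± 0.70 and 9.24 ± 0.50 in ileum at day 8, 55 and 176. It was called at each step, with falls of -0.85 ± 0.27 (adjusted p = 0.00759) and -2.33 ± 0.28 (adjusted p = 9.23e-10) in jejunum and of -1.12 ± 0.28 (adjusted p = 0.000494) and -1.31 ± 0.28 (adjusted p = 0.000156) in ileum. In jejunum the means at day 8 and 55 were 12.44 and 10.17 in T1, 12.33 and 12.13 in T2 and 12.58 and 12.50 in T3, and T1 had the lowest mean at day 55. Whether the change differed between treatments was not tested. CLDN5 had means of 10.50 ± 0.24, 8.19 ± 0.90 and 8.04 ± 0.49 in jejunum and of 9.84 ± 0.80, 7.65 ± 0.40 and 7.10 ± 0.36 in ileum. Its called fall lay between day 8 and day 55, at -2.29 ± 0.19 in jejunum (adjusted p = 3.27e-15) and -2.22 ± 0.19 in ileum (adjusted p = 1.2e-14). Of the 5 endothelial marker genes on the array, CD34, CDH5, ENG and PECAM1 fell and ICAM2 rose over the same interval in both tissues, and the part of these cells in the fall of CLDN5 was not tested.

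CLDN3 rose from 14.71 ± 0.27 at day 8 to 15.59 ± 0.25 at day 55 in jejunum and from 14.49 ± 0.19 to 15.18 ± 0.28 in ileum. The rise was 0.90 ± 0.17 in jejunum (adjusted p = 1.36e-05) and 0.70 ± 0.17 in ileum (adjusted p = 0.000556). With the 75th percentile the ileum rise was 0.45 (adjusted p = 0.0269), below the fold limit. The median over all genes was then also 0.45. At day 176 CLDN3 was 0.62 ± 0.17 above day 8 in jejunum (adjusted p = 0.00135) and 0.59 ± 0.17 in ileum (adjusted p = 0.00328), and the value in ileum lay so near the fold limit that leaving out 1 array ended the call in 34 of 67 cases (0.53 to 0.64). CLDN7 had means of 16.20 ± 0.25 at day 8 and 16.16 ± 0.14 at day 55 in jejunum, a difference of -0.04 ± 0.33 (adjusted p = 0.934). It was called lower at day 176 than at day 8 in ileum, at -0.91 ± 0.34 (adjusted p = 0.0191), and at -0.59 with the 75th percentile (adjusted p = 0.127). In jejunum the fall from day 55 to day 176 was -1.25 ± 0.34 (adjusted p = 0.00189), but without jejunum day 176 T2 pool 8 it was -0.51, below the fold limit. The fall from day 8 was likewise -1.29 with that array and -0.55 without it.

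CLDN12 differed between day 8 and day 176 by -2.18 ± 0.42 in jejunum (adjusted p = 1.24e-05) and by -1.39 ± 0.43 in ileum (adjusted p = 0.00486). Without jejunum day 176 T2 pool 8 the jejunum value was -1.503 (adjusted p = 7.12e-05). Its fall of -1.37 ± 0.43 from day 55 to day 176 in jejunum (adjusted p = 0.00704) was -0.69 without T2 pool 8, with an adjusted p of 0.0793. OCLN fell between day 8 and day 55 in ileum, by -1.09 ± 0.12 (adjusted p = 2.91e-11), from a mean of 12.72 ± 0.26 to 11.64 ± 0.30. In jejunum its means were 12.74 ± 0.19, 12.84 ± 0.16 and 12.21 ± 0.22, and the called step was -0.62 ± 0.12 from day 55 to day 176 (adjusted p = 3.09e-05), which fell below the fold limit without day 176 T2 pool 6 (-0.57) or day 176 T1 pool 11 (-0.58), and with the brightest probe alone (-0.39, adjusted p = 0.00464). Counted by step, 5 genes were called in jejunum between day 8 and 55 (37.1% of all genes) and 5 between day 55 and 176 (36.9%), and 6 and 2 in ileum (47.3% and 28.3%). When the tissue and day means of a gene were put in order, 39 of the 40 neighbouring pairs had ranges that overlapped. The exception was CLDN15 in jejunum and ileum at day 55.

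Differences between ileum and jejunum passed the test at day 55 and 176 and not at day 8. At day 8, 0 of the 8 genes were called by limma (3.6% of all genes). An unadjusted p below 0.05 was found for 4 of them and for 7871 of all 28236 genes. All 8 means were lower in ileum. CLDN15 came nearest, at -0.45 ± 0.13 with an adjusted p of 0.0426 and a fold below the limit. At day 55, 4 genes were lower in ileum and none was called higher (41% of all genes called, 20.7% lower), and at day 176, 3 were lower (26.5% and 13.9%). The median over the 8 genes was -0.44, -0.74 and -0.18 at the 3 days, beside 0.03, 0.04 and -0.05 over all genes.

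**Figure D2:**
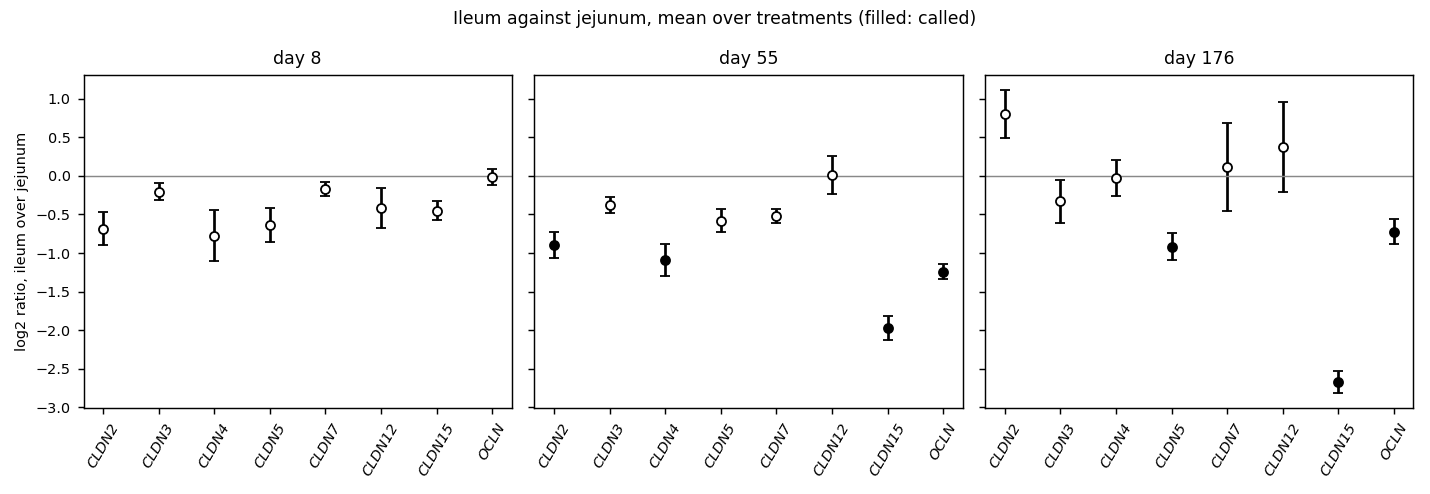
Ileum minus jejunum for each gene (vertical axis, log2 difference) at day 8, 55 and 176; bars are standard errors and filled points are called. CLDN15 moved from -0.45 at day 8 to -1.97 and -2.67, and OCLN was lower in ileum at day 55 and 176.

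CLDN15, a sodium channel former, was -1.97 ± 0.15 lower in ileum at day 55 (adjusted p = 4.78e-09) and -2.67 ± 0.15 at day 176 (adjusted p = 3.7e-10). No ileum array reached the lowest jejunum array on either day. The tissue difference itself changed by -1.48 ± 0.20 from day 8 to day 55 (adjusted p = 6.25e-08, with 38.1% of all genes called in this test), and by -0.56 ± 0.21 from day 55 to day 176 (adjusted p = 0.0296, 33.8%). The latter was lost with the 75th percentile (-0.13, adjusted p = 0.605) and without the 8 arrays that stood apart (-0.45, adjusted p = 0.172). From day 8 to day 176 it changed by -2.04 ± 0.20 (adjusted p = 3.54e-11, 23.3%).

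OCLN was lower in ileum by -1.24 ± 0.10 at day 55 (adjusted p = 1.09e-08) and by -0.72 ± 0.16 at day 176 (adjusted p = 0.00138). Its tissue difference moved by -1.19 ± 0.17 between day 8 and day 55 (adjusted p = 1.35e-07) and back by 0.46 ± 0.17 to day 176 (adjusted p = 0.0312), a call lost with the brightest probe (0.35, adjusted p = 0.0978). CLDN2 was -0.90 ± 0.17 lower in ileum at day 55 (adjusted p = 0.000154), while at day 176 the difference was 0.80 ± 0.31 with an adjusted p of 0.0529. The change between those days was 1.76 ± 0.37 (adjusted p = 0.000178). CLDN4 was -1.09 ± 0.21 lower in ileum at day 55 (adjusted p = 0.000177), and the change to day 176 was 1.03 ± 0.39 (adjusted p = 0.037). By treatment the day 55 means of CLDN4 in ileum and jejunum were 10.15 and 10.27 in T1, 10.56 and 12.26 in T2 and 11.22 and 12.67 in T3. Those of CLDN2 were 6.58 and 6.84 in T1, 7.37 and 8.47 in T2 and 7.62 and 8.95 in T3. For both genes the tissues lay closest in T1. CLDN5 was -0.92 ± 0.18 lower in ileum at day 176 (adjusted p = 0.000469).

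Epithelial markers differed between the tissues on the same days. Of 15 such genes on the array, 0 were called between the tissues at day 8, 8 were lower and 1 higher in ileum at day 55, and 10 of the 13 tested were lower at day 176. Their part in the tissue differences was not tested. Jejunum and ileum of day 55 lay on different slides and in different scan sessions, so tissue and slide cannot be told apart there. At day 176 a single slide held both tissues, as ileum T1 and jejunum T3. A model of that day with slide as a fixed block left CLDN15 called at -2.19 (adjusted p = 0.0182). CLDN5 was -0.13 ± 0.525 (adjusted p = 0.919) and OCLN -0.36 ± 0.467 (adjusted p = 0.71). These errors were larger than without the slide, so the lost calls do not show that the tissue difference is absent. Without the 8 arrays that stood apart 6 genes were called at day 176, and CLDN7 went from 0.11 to -0.66.

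Treatment comparisons asked whether the antibiotic alone, or with the handling, left a trace in the junction genes. Of 144 tests within the tissues (8 genes, 3 comparisons, 2 tissues and 3 days), 8 were called, all at day 55 and all higher in treated piglets. They were CLDN2, CLDN4 and CLDN5 in jejunum of T2 and of T3, and CLDN2 and CLDN4 in ileum of T3, each against T1.

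**Figure D3:**
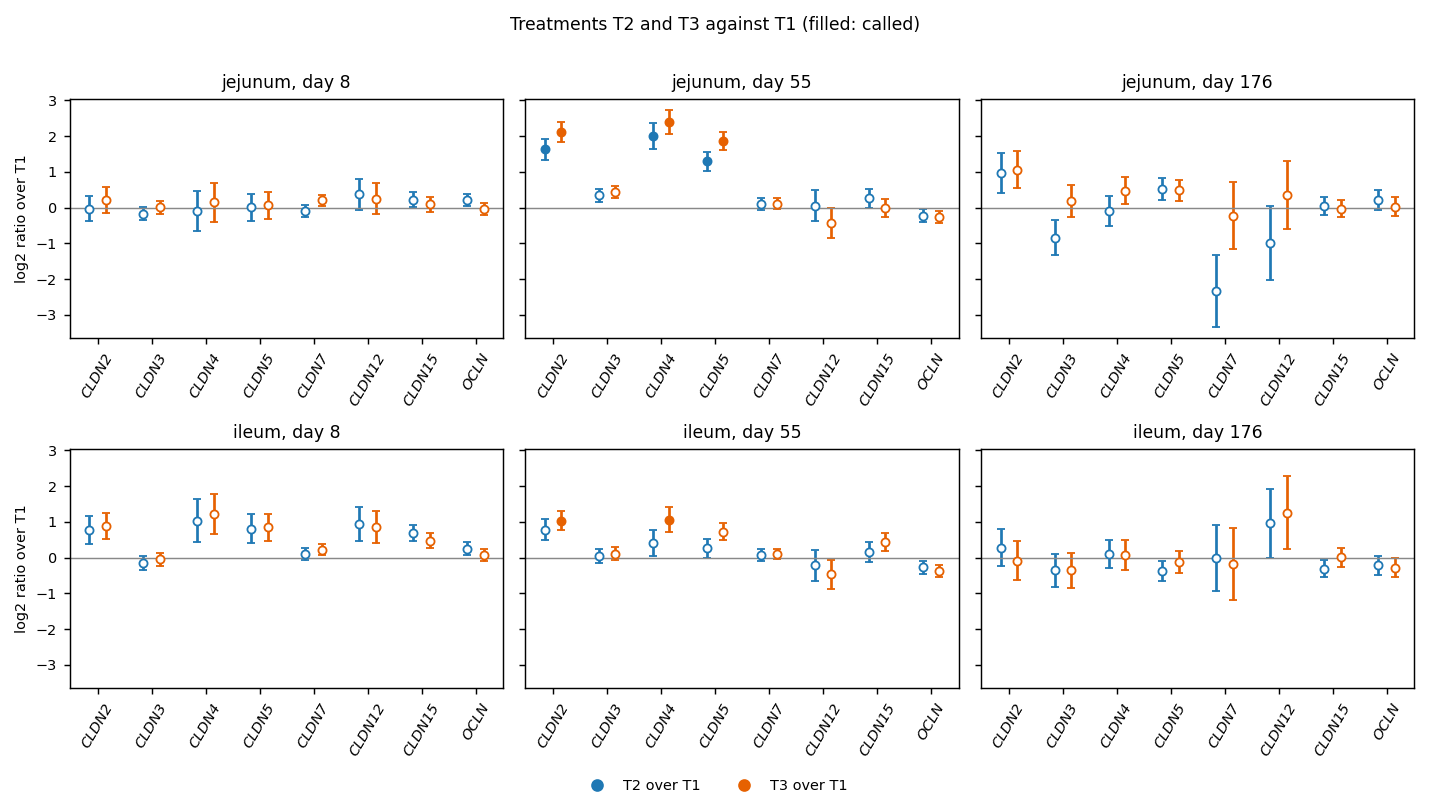
Treatment differences (vertical axes, log2, T2 minus T1 in blue and T3 minus T1 in orange) of each gene in jejunum and ileum at day 8, 55 and 176; bars are standard errors and filled points are called. The 8 filled points all lie at day 55 and above 0.

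At day 55 the CLDN2 values of the jejunum pools were 6.64, 7.19, 6.88 and 6.66 in T1, 8.77, 8.35 and 8.30 in T2 and 9.26, 8.99, 8.97 and 8.59 in T3. CLDN4 was 10.15, 10.56, 10.02 and 10.35 in T1, 12.63, 12.38 and 11.78 in T2 and 13.09, 12.54, 12.99 and 12.06 in T3. CLDN5 was 7.23, 7.02, 7.48 and 7.16 in T1, 9.11, 8.64 and 7.80 in T2 and 9.53, 8.72, 9.10 and 8.99 in T3. For each of the 3 genes every T2 and T3 pool lay above every T1 pool, and T2 and T3 overlapped.

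T2 and T1 of jejunum shared a slide, and in this comparison 3 of the 8 genes were called (3.32% of all genes, 2.83% higher). CLDN2 was 1.63 ± 0.30 higher in T2 (adjusted p = 0.00378), CLDN4 2.00 ± 0.37 (adjusted p = 0.00392) and CLDN5 1.29 ± 0.27 (adjusted p = 0.00855). The call of CLDN5 was lost without T2 pool 5, where the difference was 1.00 with an adjusted p of 0.0893. The CLDN2 call was lost with all 67 tissue arrays in 1 fit (1.58, adjusted p = 0.0566), and those of CLDN4 and CLDN5 with 1 treatment effect for both tissues (1.204, adjusted p = 0.0665, and 0.78, adjusted p = 0.0992). The same 3 genes were called in T3 (12.2% of all genes, 6.85% higher), which used the same T1 pools and lay on another slide than T1. There CLDN2 was 2.11 ± 0.28 higher (adjusted p = 5.33e-05), CLDN4 2.40 ± 0.34 (adjusted p = 0.000112) and CLDN5 1.86 ± 0.25 (adjusted p = 5.6e-05). Between T3 and T2, 0 genes were called by limma (0.86% of all genes) and 1 had an unadjusted p below 0.05. Of all 30005 genes, 3698 had such a p. The median over the 8 genes was 0.30 in T2 and 0.27 in T3, beside -0.04 and -0.05 over all genes.

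**Figure D4:**
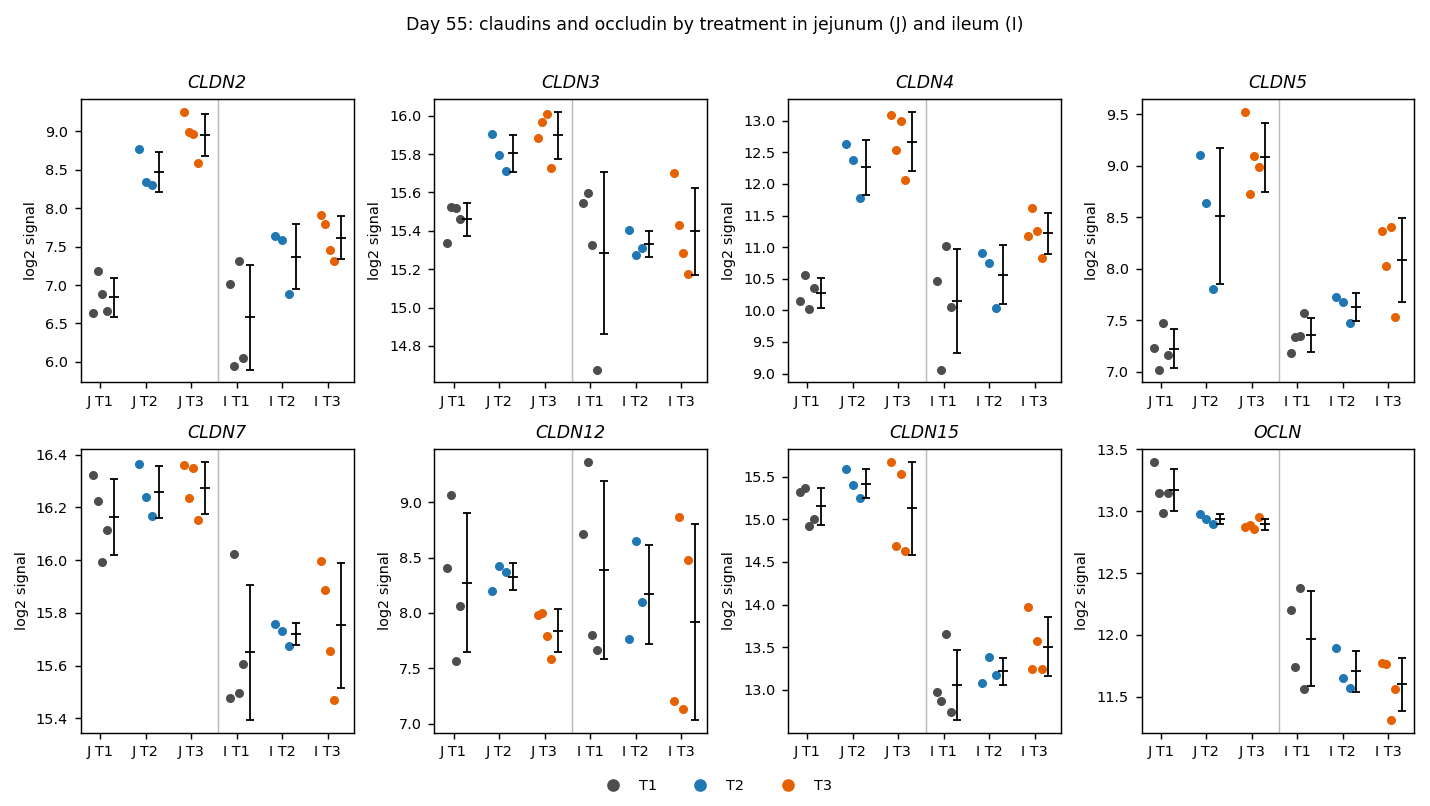
Level of each gene (log2 normalized signal) on the day 55 arrays by treatment in jejunum and ileum; points are pools and bars are the mean ± SD. CLDN2, CLDN4 and CLDN5 of jejunum T1 lie below all T2 and T3 pools.

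The other 5 genes were not called in jejunum. CLDN3 was 15.34 to 15.52 in T1, 15.71 to 15.90 in T2 and 15.73 to 16.01 in T3, with differences of 0.34 ± 0.19 (adjusted p = 0.4) and 0.44 ± 0.17 (adjusted p = 0.106). OCLN was 12.99 to 13.40 in T1, 12.90 to 12.98 in T2 and 12.85 to 12.95 in T3, with differences of -0.23 ± 0.18 (adjusted p = 0.601) and -0.28 ± 0.17 (adjusted p = 0.308). Neither passed the test, though the treated pools of both did not overlap the T1 pools. In all, 5 of the 8 genes had T2 pools clear of T1 (17.6% of all genes) and the same 5 had T3 pools clear of T1 (21.2%). CLDN7, CLDN12 and CLDN15 overlapped between T1 and either treatment.

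Marker genes of other cells differed between these jejunum groups too. The summed level of the 8 T cell genes was 13.21 to 13.72 in T1, 13.57 to 14.25 in T2 and 13.77 to 14.13 in T3, and CD8A was called in T2, CD2, CD247, CD3D, CD8A and LCK in T3. That of 3 genes listed for B and plasma cells, CD79A, XBP1 and PIGR, was 14.00 to 14.24, 14.56 to 15.29 and 15.14 to 15.53. Of these PIGR, which epithelium makes, was called in T2, and PIGR and XBP1 in T3. The 15 epithelial genes summed to 20.43 to 20.70, 20.66 to 20.78 and 20.67 to 20.78, with 0 called in T2 and ANPEP, HNF4A and KRT8 in T3. The 5 endothelial genes, of interest for CLDN5, summed to 11.36 to 11.70, 11.40 to 11.91 and 11.41 to 11.93, with 0 called in T2 and CDH5 in T3. The 4 smooth muscle genes summed to 12.65 to 13.02, 12.96 to 13.55 and 13.07 to 13.59, with 0 called in T2 and ACTA2 and DES higher and MYLK lower in T3. The part of these cells in the claudin differences was not tested.

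In ileum at day 55, T2 against T1 gave 0 called genes (0.08% of all genes), with 1 unadjusted p below 0.05. Of all 30005 genes, 2616 had such a p. In T3, 2 of the 8 genes were called against T1 (14.8% of all genes, 8.54% higher). CLDN2 was 7.01, 5.95, 7.31 and 6.05 in T1 and 7.91, 7.79, 7.46 and 7.31 in T3, a difference of 1.04 ± 0.28 (adjusted p = 0.0153). CLDN4 was 10.47, 9.06, 11.02 and 10.05 in T1 and 11.17, 11.62, 11.25 and 10.83 in T3, a difference of 1.07 ± 0.34 (adjusted p = 0.0387). The lowest T3 pool of CLDN2 lay just above the highest T1 pool, and those of CLDN4 overlapped. CLDN5 differed by 0.73 ± 0.25 with an adjusted p of 0.0505. OCLN had means of 11.97 in T1 and 11.60 in T3 and was not called. With its brightest probe alone OCLN was called lower in T3, at -0.70 ± 0.19 (adjusted p = 0.0191). Summed marker levels in T1 and T3 were 13.47 to 14.12 and 13.95 to 14.28 for T cell genes (LCK called), 11.17 to 11.46 and 11.43 to 11.63 for endothelial genes (ENG and PECAM1 called) and 19.46 to 20.08 and 19.72 to 20.01 for epithelial genes (ANPEP and GPX2 called). For B and plasma cell genes the highest T1 sum was 14.61 and the lowest T3 sum 14.77, with 0 called. Smooth muscle genes summed to 12.65 to 13.17 and 13.05 to 13.40, with 0 called. The part of these cells was not tested.

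The ileum T3 arrays lay alone on a slide, and 42.4% to 52.0% of their spots were well above background, against 62.6% to 73.1% in the other ileum arrays of that day. Group and slide cannot be told apart. The CLDN2 call was lost without T1 pool 10 or T1 pool 12 (adjusted p up to 0.0582), and the CLDN4 call without T1 pool 10 or 12 or T3 pool 1, 2 or 3 (adjusted p up to 0.137). T3 against T2 gave 0 called genes among the 8 (8.26% of all genes), with 0 unadjusted p below 0.05. The treatment effect differed between the tissues for 0 of the 8 genes (0.263% of all genes for T2, 5.96% for T3 and 0.513% for T3 against T2), with 2, 3 and 0 unadjusted p below 0.05. Of all 30005 genes, 2745, 6648 and 3582 had such a p in these tests. CLDN4 had the effects most apart in T2, at -1.58 ± 0.52 (adjusted p = 0.272), and CLDN5 the lowest adjusted p in T3, at -1.14 ± 0.35 (adjusted p = 0.0581).

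At day 8 none of the 8 genes was called between treatments in jejunum by limma (0.0212% of all genes for T2 against T1 and 0% for both other comparisons), with 0 unadjusted p below 0.05. In ileum 0 were called as well (0.418% for T2, 1.07% for T3 and 0.0283% for T3 against T2), with 1, 4 and 0 unadjusted p below 0.05. Of all 28236 genes, 5366, 7054 and 2539 had such a p in these ileum comparisons. The ileum T1 pools were spread widely. CLDN4 was 11.67, 11.08, 8.37 and 12.66 in pools 9 to 12, CLDN2 was 8.55, 8.40, 7.25 and 9.69, and CLDN5 was 9.52, 9.58, 7.77 and 10.55. Pool 11 was lowest and pool 12 highest for all 3 genes. T2 and T3 lay 1.04 ± 0.60 and 1.23 ± 0.56 above T1 for CLDN4, with adjusted p of 0.351 and 0.179.

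Leaving out ileum T1 pool 12 gave 9 calls, all higher in treated pools. They were CLDN2, CLDN5, CLDN12 and CLDN15 in T2 and the same genes and CLDN4 in T3. The share of all genes called in that run was not recorded, so the 9 calls cannot be set against it. Without the arrays that stood apart, pool 11 among them, the count was 0. The treatment effect differed between tissues for 0 genes at day 8 (0.00708%, 0.0354% and 0.00708% of all genes), with 0 unadjusted p below 0.05.

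At day 176 none of the 8 genes was called between treatments by limma. In jejunum the shares of all genes called were 1.59% for T2, 0% for T3 and 1.16% for T3 against T2, and 1, 0 and 1 of the 8 genes had an unadjusted p below 0.05. Of all 28236 genes, 7111, 1844 and 5039 had such a p in these jejunum comparisons. In ileum the shares called were 0.0106%, 0.00354% and 0%, and none of the 8 genes had an unadjusted p below 0.05. A single array stood far from the rest in jejunum. T2 pool 8 held CLDN7 at 8.91, against 15.10 to 16.11 in the other jejunum arrays, CLDN3 at 12.70 against 15.14 to 16.05, and CLDN12 at 1.99, not well above background, against 6.47 to 8.01. Its CLDN15 value was 15.36, just above the other arrays, of which the highest was 15.29. CLDN7 was -2.35 ± 1.00 lower in T2 than in T1 (adjusted p = 0.167), and -0.08 without that array. Effects differed between tissues for 0 genes (0.726%, 0% and 0.23% of all genes), with 1, 0 and 0 unadjusted p below 0.05. Of all 28236 genes, 4910, 2075 and 2347 had such a p in these tests.

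Blood, which lacks epithelium, gave the level of the 8 probes outside the gut. In blood 0 genes were called between treatments by limma (0.00694% of all genes for T2, 0.00347% for T3 and 0% for T3 against T2), with 2, 2 and 0 unadjusted p below 0.05. Of all 28833 genes, 3085, 2030 and 1157 had such a p in these blood comparisons. Against blood, 8 of 8 genes were higher in jejunum (75.6% of all genes called, 34% higher) and 7 of 8 in ileum (74% and 33.4%). The median over the 8 genes was 5.69 and 5.07, beside -0.21 over all genes in each, and rested in part on blood values at background. All 15 epithelial genes on the array were called higher in both tissues than in blood. FABP1 and EPCAM, which mark epithelium, had medians of 4.16 and 4.91 in blood and of 16.16 and 14.63 in jejunum. Gut and blood lay on different slides and in different scan sessions.

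**Figure D5:**
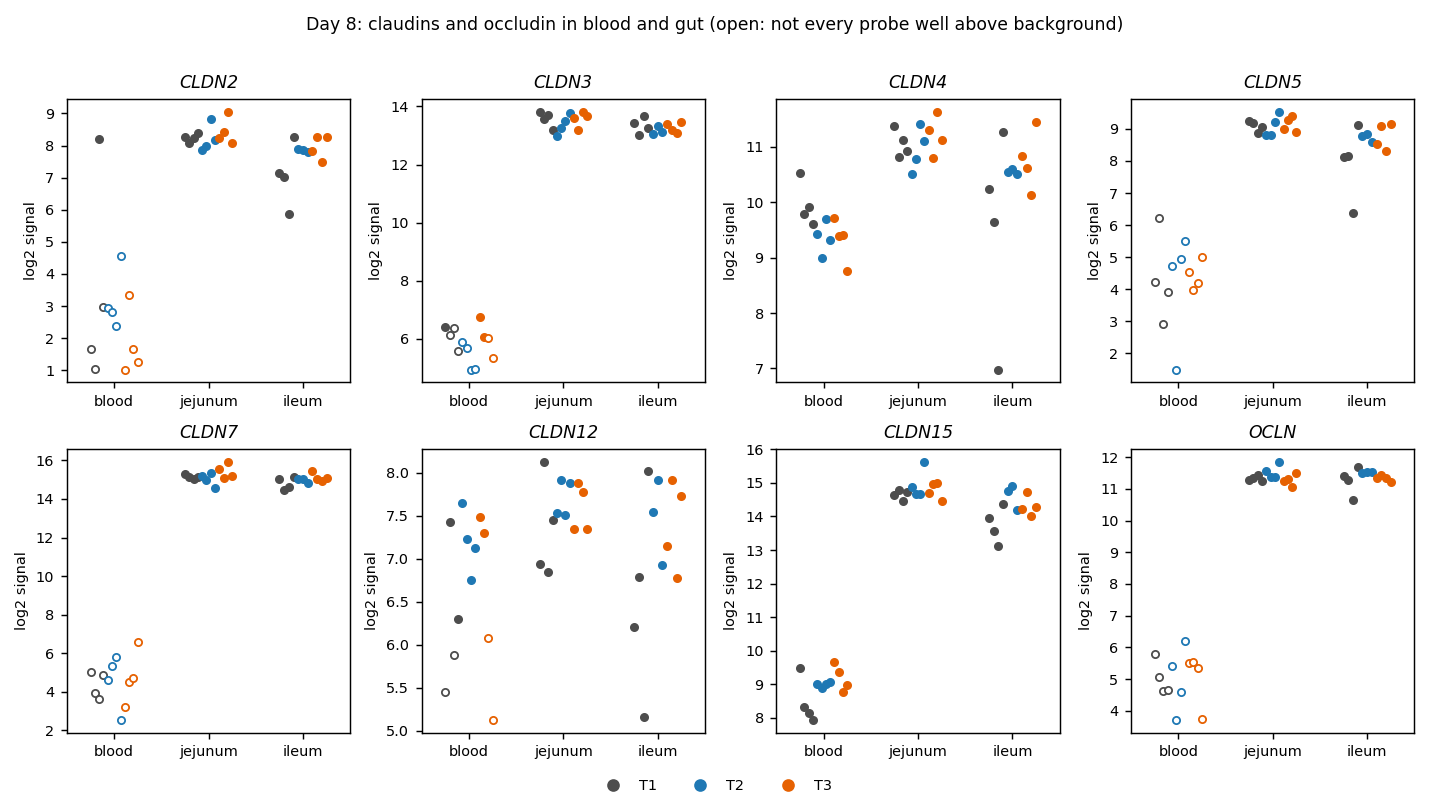
Level of each gene (log2 normalized signal) on the 35 arrays of day 8 by tissue; points are arrays, coloured by treatment, and open points had a probe not well above background. CLDN3, CLDN7, CLDN15 and OCLN stood far above blood, and CLDN4 and CLDN12 lay near the blood values.

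CLDN7 had a lowest, median and highest value of 2.55, 4.67 and 6.58 in blood, 14.59, 15.17 and 15.93 in jejunum and 14.47, 15.02 and 15.45 in ileum. It was not well above background on any of the 12 blood arrays, so that its difference is a bound of at least 1050-fold in jejunum and at least 889-fold in ileum. CLDN5 was not well above background in blood either, and was at least 14.6-fold and at least 9.46-fold higher in jejunum and ileum. These bounds set the mean of the gut arrays against the lowest signal well above background on each blood array or, where it was higher, the probe's own value. CLDN3 had a lowest, median and highest value of 4.94, 5.97 and 6.76 in blood, where 3 of 12 arrays were well above background, of 12.98, 13.57 and 13.82 in jejunum and of 13.01, 13.27 and 13.67 in ileum.

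CLDN15 was well above background on all 12 blood arrays, at 7.95, 8.99 and 9.68, and was 60.1-fold higher in jejunum and 40.3-fold in ileum. CLDN2 was 1.02, 2.604 and 8.21 in blood, where only the highest, a T1 array, was well above background, 7.87, 8.23 and 9.06 in jejunum and 5.87, 7.81 and 8.28 in ileum. The blood range of CLDN2 thus reached into those of the gut, while that of CLDN3 stayed below them. CLDN4 was well above background on all 12 blood arrays, at 8.76, 9.51 and 10.53. It was 10.50, 11.11 and 11.64 in jejunum, 2.88-fold above blood, and 6.98, 10.54 and 11.45 in ileum, 1.66-fold above blood, where its call was lost without ileum T1 pool 12 (adjusted p = 0.0542). CLDN12 was 1.86-fold higher in jejunum and 1.40-fold in ileum, the latter not called (adjusted p = 0.131). It was well above background on 8 of 12 blood arrays. With normexp background correction the jejunum difference of CLDN12 was 0.513 (adjusted p = 0.00942), below the fold limit. The ileum difference of CLDN4 was then 0.577 (adjusted p = 0.026), also below it.

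The 3 OCLN probes disagreed in blood. Their blood means were 1.88, 4.04 and 9.12, with 0, 1 and 12 of 12 arrays well above background, while their means in jejunum were 10.96, 11.57 and 11.63. The probe that was well above background on all blood arrays had a mean of 11.72 in ileum. In ileum the 3 probes fell together after day 8, from means of 12.10, 12.99 and 13.06 to 10.62, 12.18 and 12.13 at day 55. In jejunum they parted over that interval. The first went from 12.34 to 12.09, and the others from 12.91 and 12.97 to 13.24 and 13.18.

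In a list of 79 other genes of the tight junction, 23 were on the array under a symbol and 18 to 22 were tested in a comparison. In jejunum at day 55, 2 of 20 were called in T2 (3.32% of all genes), both higher. They were CLDN23, another claudin of intestinal epithelium, at 1.74 ± 0.23 (adjusted p = 0.000315) and NECTIN2, an adhesion molecule of the cell junction, at 1.28 ± 0.24 (adjusted p = 0.00484). In T3, with 12.2% of all genes called, the same genes were higher, at 1.69 ± 0.22 and 1.33 ± 0.23. There MYLK, the myosin kinase that tightens the actin ring under the junction, was -0.97 ± 0.28 lower (adjusted p = 0.0275). In ileum T3, 4 were higher and 1 lower (14.8% of all genes called). Among them were CLDN11 at 1.10 ± 0.32, JUP, a plaque protein of adhering junctions, at 0.87 ± 0.28 and CLDN19 at -1.12 ± 0.24. The list's median was 0.14, 0.00 and -0.04 in these comparisons, beside -0.04, -0.05 and -0.04 over all genes. No gene of the list was called between treatments at day 8 or day 176 or in blood, where at most 1.59% of all genes were called.

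Between the tissues, 3 of 20 genes of the list were higher and 9 lower in ileum at day 55 (41% of all genes called). The lower were led by F11R, a junctional adhesion molecule, at -1.94 ± 0.23 and NECTIN2 at -1.22 ± 0.14. The higher were led by CLDN18 at 1.19 ± 0.21 and CLDN19 at 1.08 ± 0.14. At day 176, 1 of 18 was higher and 6 were lower (26.5% of all genes called). The higher was the small GTPase CDC42 at 0.62 ± 0.13, and the lower were led by CLDN18 at -1.17 ± 0.42 and CLDN22 at -1.07 ± 0.27. At day 8, 2 of 19 were lower (3.6% of all genes called), JUP at -0.98 ± 0.22 and CLDN11 at -0.68 ± 0.16. Between day 8 and day 176, 2 of 20 were higher and 8 lower in jejunum, where 49% of all genes were called. Among them were NECTIN2 at -2.66 ± 0.21, CLDN23 at -2.29 ± 0.23, CLDN22 at 1.04 ± 0.27 and CLDN18 at 1.00 ± 0.23. In ileum 1 of 20 was higher and 7 lower, where 48.6% of all genes were called. They included CLDN8, a sealing claudin, at -2.94 ± 0.43, NECTIN2 at -2.01 ± 0.22 and JUP at 0.71 ± 0.20. Against blood, 10 of 22 were higher and 8 lower in jejunum (75.6% of all genes called) and 10 and 9 in ileum (74%). EPCAM, which holds claudins at the cell surface, was 9.69 ± 0.24 and 9.96 ± 0.25 higher in the gut, and CLDN19 was -4.79 ± 0.24 and -4.20 ± 0.24 lower.

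Genes whose means over the 18 groups of tissue, day and treatment were most like those of each member were taken by Pearson's r among 2227 genes with a symbol. These points share slides and scan sessions by age, and the values are a description. CLDN4 was most like ARF1 (r = 0.990) and CLDN23 (r = 0.980), and CLDN2 was most like MSRB1 (r = 0.961) and CLDN4 (r = 0.960). CLDN5 was most like SIRT2 (r = 0.984) and HSD17B8 (r = 0.974), CLDN7 like GNA11 (r = 0.972) and TMBIM6 (r = 0.963), and CLDN15 like ACE (r = 0.979) and RGN (r = 0.975). OCLN was most like GHR (r = 0.962) and RBP2 (r = 0.954), CLDN3 like CAMK2G and ANXA2 (r = 0.924 each), and CLDN12 like JAK1 (r = 0.912) and ATP2B1 (r = 0.897).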

How the data were processed

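RNA of jejunum, ileum and blood was hybridised on 1-colour porcine Agilent arrays and read with Feature Extraction. The deposited intensity values are the scanner's processed signal per spot, background-subtracted by that software and not normalized between arrays. The authors' table of the series holds log2 values that were log2-transformed and quantile-normalized. It served only for the check of labels and for the alternative with its labels, and its values entered no test. Precision is limited by how many arrays a group had. Per the study's supplement, the day 8 pools of a treatment came from different sows, and each set of sows gave a pool to every treatment.

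Control spots and spots flagged as outliers were left out, signals below 1 were set to 1, log2 was taken, and arrays were quantile-normalized within each fit. Probes below the 20th percentile of the signals on some array of every group were dropped, and probes of a gene were averaged. Gene symbols came from RefSeq accessions. Tests used limma (version 3.58.1, under R 4.3.3) with a mean for each group, separately for day 8 (23 arrays, 28236 genes), day 55 (22, 30005), day 176 (22, 28236), blood (12, 28833), all tissue arrays for age (67, 30816) and gut against blood (35, 32953). All 8 members were tested in each. Tissue differences are means over the 3 treatments, and p-values were adjusted by the Benjamini-Hochberg method over all genes of a comparison. A change of the tissue difference or of a treatment effect was called on adjusted p alone. The code was tested on simulated data.

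The members, the tight junction list, the marker lists and the tests were chosen with earlier results of these data known. Other genes of the list were named by the highest and lowest called values of each comparison, up to 2 in each direction. Jejunum and ileum of a pool at day 8 share its number in the labels. Deviations from group means of the tissues of a pool correlated at a mean r of 0.176 at day 8, 0.074 at day 55 and 0.05 at day 176, against -0.059, -0.027 and -0.016 for other pools. Alternatives were the 75th percentile in place of quantile normalization, normexp, 2 other filters on dim probes, the brightest probe of a gene, other sets of arrays in a fit, 1 treatment effect for both tissues, the slide, the pool or the sow set as a block, the labels of the authors' table, and leaving out each array in turn. Leaving out the 8 arrays that stood apart was added after the data were seen.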

Additional observations from a re-analysis of the deposited data

Results flagged for a closer look

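Of 128 groups of 4 pools, by gene, 4 held a pool whose gap to the nearest other pool exceeded Dixon's critical value, where chance gives about 1 in 20. OCLN of ileum day 176 T2 pool 7 was 10.405 on the log2 scale, against 11.68 in the nearest pool (gap over range 0.855). CLDN2 in blood was 2.036 in T2 pool 8 against 1.341 (0.901) and 5.498 in T1 pool 11 against 1.343 (0.938). CLDN2 was well above background on 0 of the 4 T2 blood arrays and 1 of the 4 T1 arrays, so that the T2 gap lies among values at background. OCLN in blood was 5.174 in T1 pool 9 against 3.607 (0.891).

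The difference between ileum and jejunum changed with age for 4 genes, by limma. From day 8 to day 55 it changed by -1.483 for CLDN15 (adjusted p = 6.25e-08) and by -1.187 for OCLN (adjusted p = 1.35e-07). From day 55 to day 176 it changed by -0.56 for CLDN15 (adjusted p = 0.0296), 1.761 for CLDN2 (adjusted p = 0.000178), 1.025 for CLDN4 (adjusted p = 0.037) and 0.461 for OCLN (adjusted p = 0.0312). Of these, the CLDN15 call was lost with the 75th percentile (-0.13, adjusted p = 0.605) and without the 8 arrays that stood apart (-0.45, adjusted p = 0.172). The OCLN call was lost with the brightest probe (0.35, adjusted p = 0.0978). From day 8 to day 176 it changed by -2.043 for CLDN15 (adjusted p = 3.54e-11), 1.58 for CLDN2 (adjusted p = 0.000698) and -0.726 for OCLN (adjusted p = 0.000832). Ages lay on different slides, so age and slide cannot be told apart.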

How the results depend on the processing

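Shares of all genes called were not recorded for the alternatives, so counts of the 8 genes stand without them here. The labels of the authors' table moved the results most. Under them the genes called between treatments went from 8 to 0 at day 55 and from 0 to 6 at day 8, ileum against jejunum at day 8 from 0 to 6, treatment effects that differ between tissues at day 8 from 0 to 6, ileum day 176 against day 55 from 2 to 8 and ileum day 55 against day 8 from 6 to 0. Log2 differences that turned their sign under these labels were, for jejunum day 8 T2 against T1, 1.628 (CLDN2) and 2.003 (CLDN4). For ileum minus jejunum they were 0.8104 (CLDN12), 0.6988 (CLDN15), 1.689 (CLDN2), 0.8676 (CLDN4) and 2.303 (CLDN5) at day 8, and 2.132 (CLDN15), 1.808 (CLDN2), 1.128 (CLDN4), 2.195 (CLDN5) and 1.096 (OCLN) at day 55. For the effect in ileum minus that in jejunum at day 8 they were -1.651 (CLDN2), -2.165 (CLDN4) and -1.429 (CLDN5) in T2 and -1.891, -2.263 and -1.793 in T3. For age they were -0.4214 (CLDN3) and -1.196 (OCLN) in jejunum from day 8 to 55, 0.58 (OCLN) from day 55 to 176, and 0.1531 (CLDN15) and -0.2741 (CLDN3) from day 8 to 176. In ileum they were -0.1773 (CLDN3) and 0.02392 (OCLN) from day 8 to 55 and 0.5856 (CLDN3) from day 55 to 176. The change of the tissue difference was 1.541 (CLDN15) and 1.22 (OCLN) from day 8 to 55, -0.9318 (CLDN2), -1.152 (CLDN4) and -1.827 (OCLN) from day 55 to 176, and -0.7552 (CLDN2) and 0.6825 (CLDN3) from day 8 to 176.

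Of the 72 calls, none was reversed under the other alternatives. With all 67 tissue arrays in 1 fit the treatment calls were 5 at day 55 and 3 at day 176, and 1 gene was called between the tissues at day 8. The 3 calls of day 176 were in jejunum, CLDN7 in T2 against T1 (-2.28) and CLDN7 and CLDN3 in T3 against T2 (2.10 and 0.95). All 3 involve T2, whose pool 8 lay far below the other jejunum arrays for both genes. Normexp gave 1 call between the tissues at day 8 and 1 treatment effect that differed between tissues at day 55, and the 75th percentile gave 3 such effects and 4 calls for ileum day 176 against day 55. The CLDN2 and CLDN4 calls of ileum T3 at day 55 were lost under normexp (adjusted p = 0.102 and 0.066), with all arrays in 1 fit (0.108 and 0.115) and with ileum fitted alone (0.0558 and 0.0846). Slide as a fixed block left 1 of 3 calls between the tissues at day 176, with larger standard errors for the calls that were lost. Without the 8 arrays that stood apart there were 6 such calls, and 3 in place of 5 for jejunum day 176 against day 55. CLDN7 in ileum minus jejunum at day 176 was -0.6638 there and, when each array was left out in turn, between -0.6395 (without jejunum T2 pool 8) and 0.5263. The causes were not tested.

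With the pool as a replicate block, jejunum day 55 against day 8 went from 5 to 6 calls, adding CLDN12 at -0.95 (adjusted p = 0.0296). The blocks of pool and sow set moved no count by over 1.5 times. Slide as a random block was not run, since each group lay on 1 slide and its mean absorbs the slide. Normexp used the median spot signal, since the files hold no mean. Leaving out 1 array in turn gave 0 to 9 treatment calls at day 8 and 0 to 3 calls between the tissues (highest without ileum T1 pool 12), 6 to 9 treatment calls at day 55, and 0 to 1 at day 176 (1 without jejunum T2 pool 6). It gave 3 to 5 calls for jejunum day 176 against day 55 and 3 to 6 between the tissues at day 176 (both ends without jejunum T2 pool 8), 2 to 4 for ileum day 176 against day 55 (4 without ileum T1 pool 12), and 0 to 1 treatment effects that differ between tissues at day 55 (1 without ileum T1 pool 10, jejunum T3 pool 2 or jejunum T2 pool 5 or 7).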
